A study of Mus musculus with 6 samples.

Results

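These 10 genes were read out of RNA-seq libraries of cultured mouse chondrocytes, chosen by name as response genes and antagonists of BMP and TGF-β signalling. They were the response genes Id1, Id2 and Id3, the intracellular and membrane inhibitors Smad6, Smad7 and Bambi, and the secreted antagonists Nog, Grem1, Chrd and Fst. All 10 were found among the 41388 genes of each count table, and all 10 passed the filter on low counts with which 14533 genes were tested. The cells came from femoral head cartilage of male mice aged 21 days, were grown for 2 days in medium with fetal bovine serum and received no treatment. The 3 Postn-/- libraries came from mice homozygous for the germline knockout allele Postn tm1Jmol, which is carried in every tissue, and the 3 wt libraries came from littermates of the same background, which the labels call B6/129 and the methods B6129SF2/J. The comparison asks what differs at baseline, before any joint damage, between chondrocytes of Postn-/- and wt mice, and Postn encodes a secreted matrix protein.

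BMP and TGF-β ligands bind pairs of receptor kinases, which phosphorylate Smad proteins that enter the nucleus and switch target genes on. Id1, Id2 and Id3 are direct targets of the BMP branch, and their proteins block basic helix-loop-helix factors. Smad6, Smad7 and Bambi are switched on by the same signals and damp them from inside the cell or at the membrane, while noggin, gremlin and chordin bind BMPs, and follistatin binds mainly activins, outside the cell. In cartilage, BMP signalling drives the formation and maturation of chondrocytes, and the antagonists limit where it acts.

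Promoter sequence was available in the RefSeq table (build GRCm38.p6) for 5 of the 10 genes, namely Id2, Id3, Smad6, Grem1 and Chrd. A pair of palindromes known from Smad-bound DNA, which read the same on both strands and cannot overlap each other, were searched from 250 bases before to 30 bases after each start. The GC-rich element GGCGCC was in 3 of the 5 windows (Id2, Grem1 and Chrd) and in 10.9% of all 32851 windows. The Smad-binding palindrome GTCTAGAC was in 1 of the 5 (Smad6) and in 0.192% of all windows. The windows of Smad6, Grem1 and Chrd are printed because they hold these letters and, before the start, no exon of their own gene. Exons of other genes were not checked, and the match is in capitals. Smad6 is read from the minus strand of chr9:64022030-64022309, and its match begins 4 bases before the start and runs across it. Grem1 is read from the minus strand of chr2:113758619-113758898, with the match beginning 78 bases before the start. Chrd is read from the plus strand of chr16:20732877-20733156, with the match 203 bases before the start.
Smad6: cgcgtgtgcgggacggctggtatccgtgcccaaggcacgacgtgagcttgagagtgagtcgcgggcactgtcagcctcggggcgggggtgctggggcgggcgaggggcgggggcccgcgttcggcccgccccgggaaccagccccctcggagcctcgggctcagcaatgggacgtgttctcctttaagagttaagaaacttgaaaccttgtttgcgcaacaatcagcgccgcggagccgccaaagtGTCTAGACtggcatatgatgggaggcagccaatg
Grem1: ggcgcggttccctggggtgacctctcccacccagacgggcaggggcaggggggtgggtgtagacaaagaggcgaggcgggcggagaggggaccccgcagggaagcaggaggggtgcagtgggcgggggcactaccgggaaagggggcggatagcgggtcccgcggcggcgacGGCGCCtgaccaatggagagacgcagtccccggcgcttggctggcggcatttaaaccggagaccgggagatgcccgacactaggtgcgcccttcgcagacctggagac
Chrd: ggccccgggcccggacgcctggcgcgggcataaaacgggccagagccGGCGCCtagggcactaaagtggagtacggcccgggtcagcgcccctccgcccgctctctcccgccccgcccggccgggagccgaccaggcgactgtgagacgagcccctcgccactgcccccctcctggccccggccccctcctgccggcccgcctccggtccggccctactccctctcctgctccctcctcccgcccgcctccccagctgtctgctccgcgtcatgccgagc
The matches describe the letters of these windows only, since binding was not measured.

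Total counts ran from 20587640 to 26572260 per library, so that 3 counts corresponded to 0.113 to 0.146 CPM (a count scaled to the library's total). This floor covers counting error only. All levels below are CPM after TMM normalization, which scales each library by a factor for its size and composition, and the factors lay between 0.970 and 1.02. The targeted gene Postn lies on the plus strand of chromosome 3, from 54361109 to 54391037. It showed 4.66, 4.27 and 5.67 CPM in the Postn-/- libraries and 10.1, 10.3 and 6.90 CPM in the wt libraries. Every Postn-/- library was below every wt library, but reads of the gene remained in all of them, and the gene counts include every exon of the gene. The chondrocyte collagen gene Col2a1 was at 8271 to 18081 CPM, and Acan, the gene of the cartilage proteoglycan aggrecan, was at 1604 to 3764 CPM. Of 8 fibroblast genes, Col1a1 was at 482 to 2059 CPM, Col1a2 at 559 to 1964 and Lum at 391 to 847. Thy1, another of them, did not pass the filter (0.240 to 0.620 CPM). Of 6 endothelial genes, Cdh5 was at 0 to 0.431 CPM and Tek at 0.407 to 1.10 CPM. The other endothelial genes passed the filter, with Pecam1 at 2.22 to 4.60 CPM, Kdr at 0.692 to 2.00, Emcn at 0.423 to 1.95 and Tie1 at 0.844 to 1.81. Of 8 genes of blood and immune cells the globin genes Hbb-bs and Hba-a1 did not exceed 0.0905 CPM, while the 4 that passed the filter summed to 18.5 to 47.3 CPM per library.

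The 3 Id genes stood far above the 7 inhibitors and antagonists. On the scale of CPM per kilobase of exon (RPKM), which allows levels of different genes to be compared, Id3 averaged 691 (493 to 798 over the 6 libraries), Id2 358 (296 to 421) and Id1 189 (160 to 226). These ranges did not overlap each other or that of any other gene of the 10. How far Id2 lay above Id1 in RPKM depends on the exon lengths used, 1270 bases for Id2 and 1160 for Id1. In CPM, before scaling by length, their ranges also did not overlap, with 376 to 535 for Id2 and 185 to 262 for Id1. Next in level were Fst with a mean RPKM of 5.79, Bambi with 5.60 and Grem1 with 5.05. They were followed by Smad7 with 2.47, Smad6 with 2.21, Nog with 1.41 and Chrd with 0.554. From Fst down to Chrd, each gene's range overlapped that of its neighbour. Nog and Chrd overlapped only through Nog in wt replicate 1, and Nog was above Chrd in each of the 6 libraries.

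None of the 10 genes separated Postn-/- from wt chondrocytes. For all 10, the Postn-/- and wt values overlapped in CPM. Of all genes tested, 13.6% did not overlap (7.03% higher and 6.57% lower in Postn-/-). At shares this low, a count of 0 among 10 genes, here and in the tests below, does not set them apart from other genes. In edgeR's quasi-likelihood test 0 of 10 passed an adjusted threshold of 0.05 (background 0.0138%, 2 genes), and 0 of 10 passed the same threshold unadjusted (background 6.3%). DESeq2's Wald test also gave 0 of 10 by either measure, with backgrounds of 0.0688% adjusted (10 genes) and 6.01% unadjusted. The lowest unadjusted p of the 10 was 0.142, for Id1, and the lowest adjusted p was 0.724, both from edgeR. The log2 fold change, Postn-/- over wt throughout, was above 0 for 9 of the 10 genes, as it was for 50.8% of all genes tested. Its median over the 10 genes was 0.17, against 0.00 over all genes tested. In bulk RNA such a value cannot be told apart from a change in the share of cells that express the gene.

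**Figure D1:**
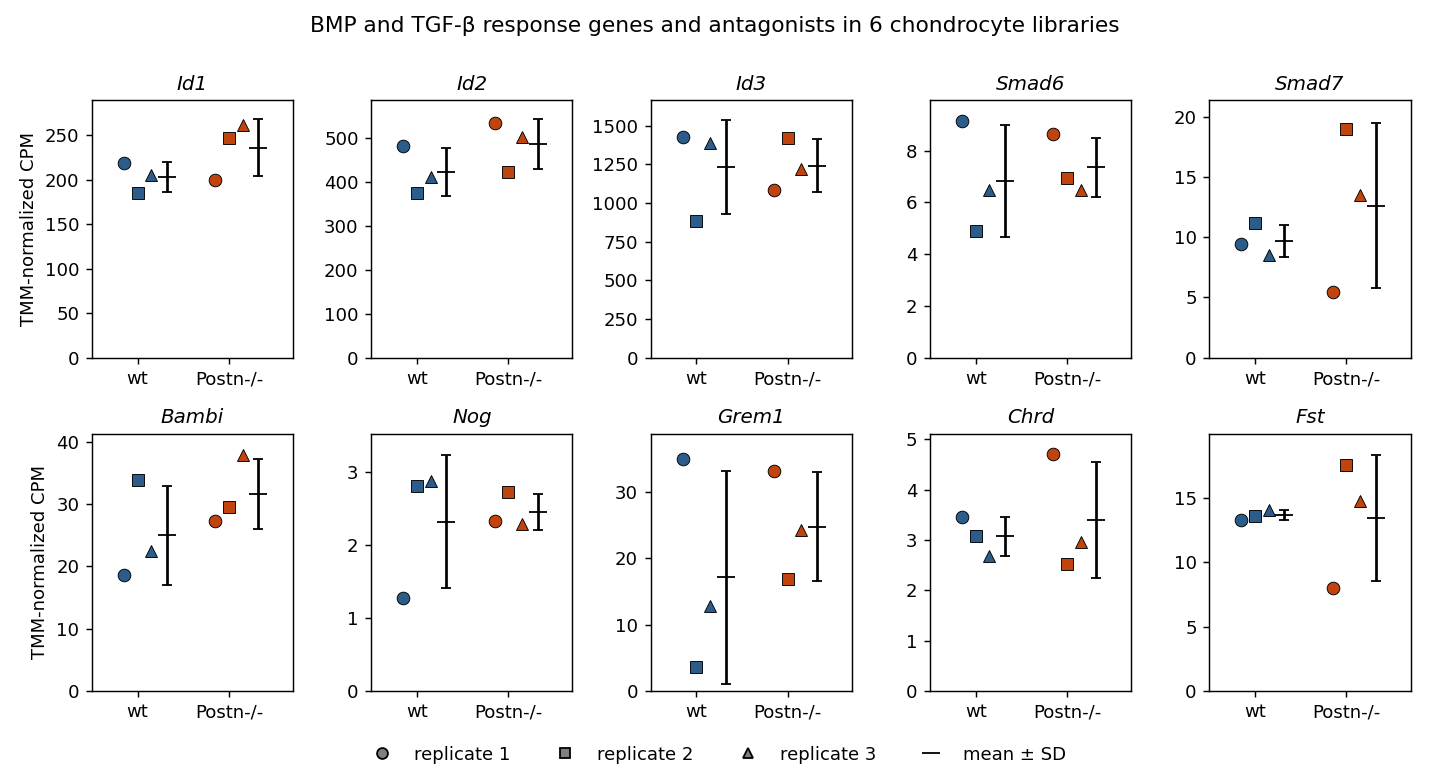
Level of each of the 10 genes (TMM-normalized CPM, linear axis from 0) in the 3 wt and 3 Postn-/- libraries, with symbols for the replicate number and a bar for the mean ± SD (n = 3). In every panel the genotypes overlap. On the log2 scale Grem1 has the widest range, from 3.66 to 34.9 CPM, with both ends in wt.

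Id1 (ENSMUSG00000042745, chromosome 2, 152736251 to 152737410, plus strand of GRCm38) had levels of 199.6, 247 and 262 CPM in the Postn-/- libraries, against 219, 185 and 206 CPM in wt. Postn-/- replicates 2 and 3 were above all 3 wt libraries, and replicate 1 was below wt replicates 1 and 3. The means were 236 ± 32.4 CPM for Postn-/- and 203 ± 17.0 CPM for wt (± SD, n = 3), with a log2 fold change of 0.22 (95% interval -0.09 to 0.52, edgeR's unadjusted p = 0.142). This fold change was 0.32 without Postn-/- replicate 1 (unadjusted p = 0.0363 and adjusted p = 0.772, edgeR) and 0.13 without Postn-/- replicate 3 (unadjusted p = 0.402, edgeR).

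Id2 (ENSMUSG00000020644, chromosome 12, 25093799 to 25097140, minus strand) reached 535, 424 and 503 CPM in Postn-/- chondrocytes and 483, 376 and 411 CPM in wt chondrocytes. Postn-/- replicates 1 and 3 were the highest of the 6 libraries, and Postn-/- replicate 2 lay between wt replicates 1 and 3. Postn-/- over wt, the log2 fold change was 0.20 (95% interval -0.13 to 0.53, edgeR's unadjusted p = 0.194). It was 0.31 without wt replicate 1, 0.12 without wt replicate 2 and 0.13 without Postn-/- replicate 1.

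Id3 (ENSMUSG00000007872, chromosome 4, 136143497 to 136145755, plus strand) was the most abundant of the 10. It measured 1084, 1419.9 and 1222 CPM across the Postn-/- cultures and 1429, 882 and 1386 CPM across the wt cultures. Both the highest and the lowest library were wt, and the log2 fold change was 0.01 (95% interval -0.47 to 0.49, edgeR's unadjusted p = 0.958). Its sign turned with the normalization: with DESeq2's size factors it was -0.00066.

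Smad6 (ENSMUSG00000036867, chromosome 9, 63953076 to 64022059, minus strand), the inhibitory Smad that acts mainly on the BMP branch, gave 8.64, 6.95 and 6.48 CPM in Postn-/- replicates 1, 2 and 3 and 9.15, 4.89 and 6.47 CPM in the wt replicates. As with Id3, wt replicate 1 was the highest and wt replicate 2 the lowest library. Between the genotypes the log2 fold change was 0.10 (95% interval -0.49 to 0.70, edgeR's unadjusted p = 0.695). It was 0.38 without wt replicate 1, and it turned to -0.087 without wt replicate 2 and to -0.027 without Postn-/- replicate 1.

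Smad7 (ENSMUSG00000025880), the inhibitory Smad that acts on both branches, had levels of 5.42, 19.0 and 13.5 CPM in the Postn-/- libraries, against 9.42, 11.2 and 8.53 CPM in wt. The 3 Postn-/- libraries enclosed the wt libraries on both sides: replicate 1 was the lowest of all 6 and replicates 2 and 3 were the highest. The log2 fold change was 0.38 (95% interval -0.53 to 1.29, edgeR's unadjusted p = 0.364). Without Postn-/- replicate 1 it was 0.74 with an unadjusted p of 0.0109, and without Postn-/- replicate 2 it was -0.04 with an unadjusted p of 0.912, both from edgeR.

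Bambi (ENSMUSG00000024232) encodes a membrane protein that resembles a type I receptor but has no kinase domain. Its levels were 27.3, 29.4 and 37.9 CPM in Postn-/- and 18.6, 33.9 and 22.4 CPM in wt. Wt replicates 1 and 3 were below all Postn-/- libraries, and wt replicate 2 lay among them. Postn-/- over wt, the log2 fold change was 0.34 (95% interval -0.20 to 0.88, edgeR's unadjusted p = 0.186), and without wt replicate 2 it was 0.62 (unadjusted p = 0.0113 and adjusted p = 0.567, edgeR). It was 0.16 without wt replicate 1 (unadjusted p = 0.473) and 0.19 without Postn-/- replicate 3 (unadjusted p = 0.490), both from edgeR.

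Nog (ENSMUSG00000048616, chromosome 11, 89300638 to 89302332, minus strand) was counted with 33 to 67 reads per library. This gave 2.33, 2.73 and 2.29 CPM in Postn-/- and 1.27, 2.81 and 2.88 CPM in wt. Wt replicate 1 alone was low, and the other 5 libraries lay between 2.29 and 2.88 CPM. Between the genotypes the log2 fold change was 0.09 (95% interval -0.68 to 0.86, edgeR's unadjusted p = 0.796) and turned to -0.21 without wt replicate 1.

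Grem1 (ENSMUSG00000074934, chromosome 2, 113746164 to 113758646, minus strand) varied most of the 10, by 3.25 on the log2 scale between its lowest and highest library. A range of at least 4-fold over the 6 libraries was found for 4.1% of all genes tested. Grem1 was counted with 827, 415 and 509 reads in Postn-/- and with 909, 81 and 266 reads in wt. These counts gave 33.2, 16.9 and 24.3 CPM in Postn-/- and 34.9, 3.66 and 12.7 CPM in wt. Wt replicate 1 was the highest library, and the other wt libraries were below all Postn-/- libraries. The log2 fold change was 0.53 (95% interval -0.99 to 2.05, edgeR's unadjusted p = 0.445). It was 1.60 without wt replicate 1 (unadjusted p = 0.0167 and adjusted p = 0.833, edgeR) and 0.05 without wt replicate 2 (unadjusted p = 0.907, edgeR). With all libraries, limma's voomWithQualityWeights gave 1.10 (unadjusted p = 0.0663 and adjusted p = 0.561). With surrogate variables added, limma gave 1.17 (unadjusted p = 0.000369 and adjusted p = 0.194). In that fit 13.7% of all genes tested passed 0.05 unadjusted.

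Chrd (ENSMUSG00000006958, chromosome 16, 20733127 to 20742384, plus strand) had the lowest level per length. It reached 4.70, 2.52 and 2.95 CPM in Postn-/- chondrocytes and 3.46, 3.08 and 2.68 CPM in wt chondrocytes, and the highest and the lowest library were both Postn-/-. Postn-/- over wt, the log2 fold change was 0.14 (95% interval -0.51 to 0.80, edgeR's unadjusted p = 0.629), and -0.17 without Postn-/- replicate 1. Its exons share 239 bases with those of Thpo on the opposite strand. Over the 6 libraries Chrd had 455 counts and Thpo 283, and whether counting used strand is not given in the sources used here.

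Fst (ENSMUSG00000021765, chromosome 13, 114452290 to 114458951, minus strand) measured 7.996, 17.6 and 14.7 CPM across the Postn-/- cultures and 13.3, 13.6 and 14.1 CPM across the wt cultures. The wt libraries lay close together, and the Postn-/- libraries enclosed them, with replicate 1 lowest as for Smad7. Between the genotypes the log2 fold change was -0.02 (95% interval -0.64 to 0.59, edgeR's unadjusted p = 0.929), and 0.24 without Postn-/- replicate 1.

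**Figure D2:**
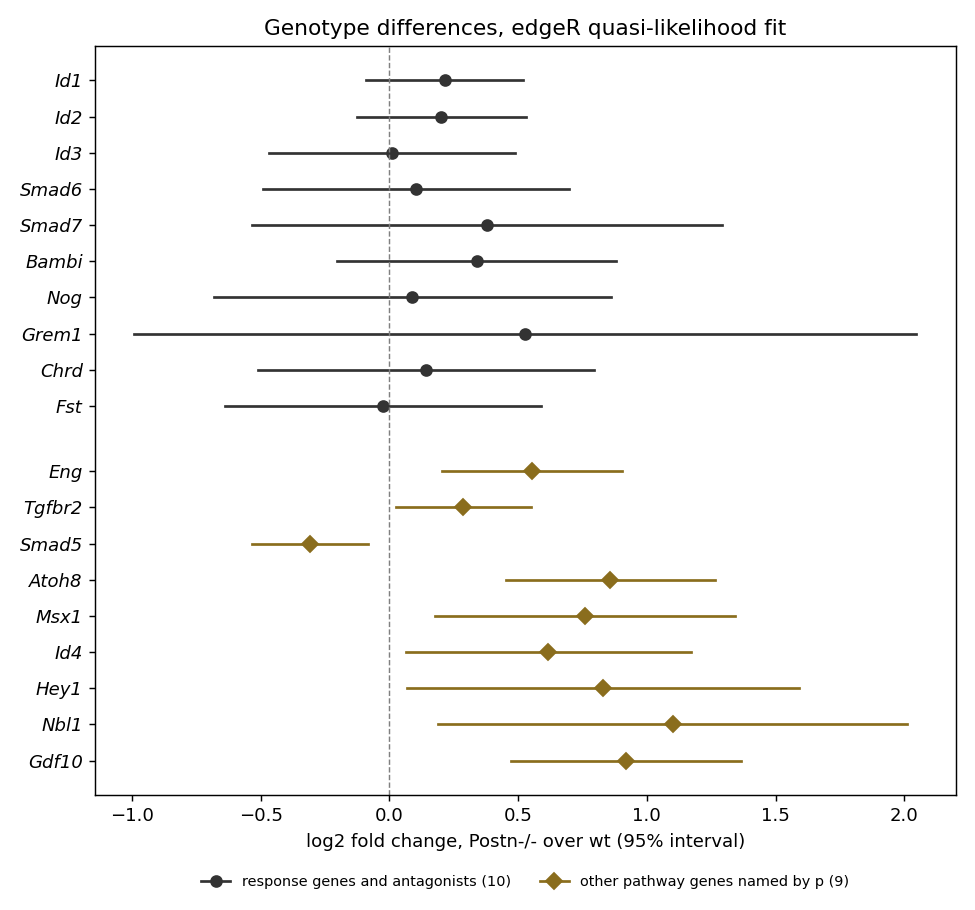
Log2 fold change, Postn-/- over wt, with its 95% interval from edgeR's quasi-likelihood fit (3 libraries each), for the 10 genes (circles) and for the 9 other genes of the pathway named by their unadjusted p (diamonds). Every interval of the 10 includes 0, and the widest is that of Grem1, from -0.99 to 2.05.

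The order of the libraries differed from gene to gene. Wt replicate 2 was the lowest of the 6 libraries for 5 of the 10 genes (Id1, Id2, Id3, Smad6 and Grem1) and the highest for 0. Of all genes tested, 17.8% were lowest in this library and 18.4% highest. Wt replicate 1 was the highest library for Id3, Smad6 and Grem1 (3 of 10, against 24.6% of all genes tested) and the lowest for Bambi and Nog (2 of 10, against 26.1%). Postn-/- replicate 1 was the lowest for Smad7 and Fst (2 of 10, against 13.7% of all genes) and the highest for Id2 and Chrd (2 of 10, against 15.4%). Postn-/- replicate 2 was the lowest for Chrd (1 of 10, against 15.6%) and the highest for Smad7 and Fst (2 of 10, against 15.0%). Postn-/- replicate 3 was the lowest for 0 of 10 (against 16.7%) and the highest for Id1 and Bambi (2 of 10, against 16.2%), and wt replicate 3 was the lowest for 0 (against 10%) and the highest for Nog (1 of 10, against 10.4%). In gene-centred log2 CPM, the closest pair of the 10 was Id2 and Smad6, with a root mean square difference of 0.192 over the 6 libraries. Id1 and Id2 were nearly as close, with 0.198, and the most distant pair was Grem1 and Nog, with 1.37. This measure grows with a gene's own spread, which was largest for Grem1 (SD 1.20). Pearson correlation ordered the pairs differently, from 0.924 for Smad6 and Grem1 to -0.955 for Chrd and Fst.

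Other gene lists moved with these libraries, and their part in the values of the 10 genes was not tested. Wt replicate 2, low for the Id genes, Smad6 and Grem1, had the largest summed level of the 7 fibroblast markers that passed the filter, 4981 CPM against 1546 to 3633 CPM in the other 5 libraries. This sum rested on the collagen genes Col1a1 and Col1a2, and the mean deviation of the 7 markers in log2 CPM was -0.01 in this library. The same library had the smallest sum of the 4 blood and immune markers that passed the filter, 18.5 CPM against 28.0 to 47.3 CPM. Their mean deviation there was -0.56. It also had the largest sum of the 2 muscle markers that passed, 17.6 CPM against 4.34 to 8.86 CPM. This sum rested on Acta1, at 15.9 CPM there. The other marker, Des, was at 1.76 CPM there and was highest in Postn-/- replicate 2, at 2.32 CPM. Wt replicate 1, low for Bambi and Nog, had the largest summed level of the 10 markers of the G2/M phase of the cell cycle, 806 CPM against 225 to 551 CPM. It also had the smallest summed level of the 10 chondrocyte markers, 25136 CPM against 31489 to 42862 CPM, although their mean deviation in log2 CPM was lowest in Postn-/- replicate 2 (-0.34, against -0.31 in wt replicate 1). Of these 10 markers, Col2a1 was higher in every Postn-/- library than in every wt library (log2 fold change 0.68, unadjusted p = 0.0125, edgeR), as were 7.03% of all genes tested. The other 9 overlapped between genotypes. Summed levels of 10 immediate early genes, which respond to serum and handling, were 219, 373 and 347 CPM for Postn-/- and 165, 312 and 251 CPM in wt, and Postn-/- replicate 1, low for Smad7 and Fst, was at the lower end of its genotype. The 4 endothelial markers that passed the filter summed to 5.79, 6.79 and 9.82 CPM in Postn-/- and to 4.46, 5.34 and 8.77 CPM in wt.

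**Figure D3:**
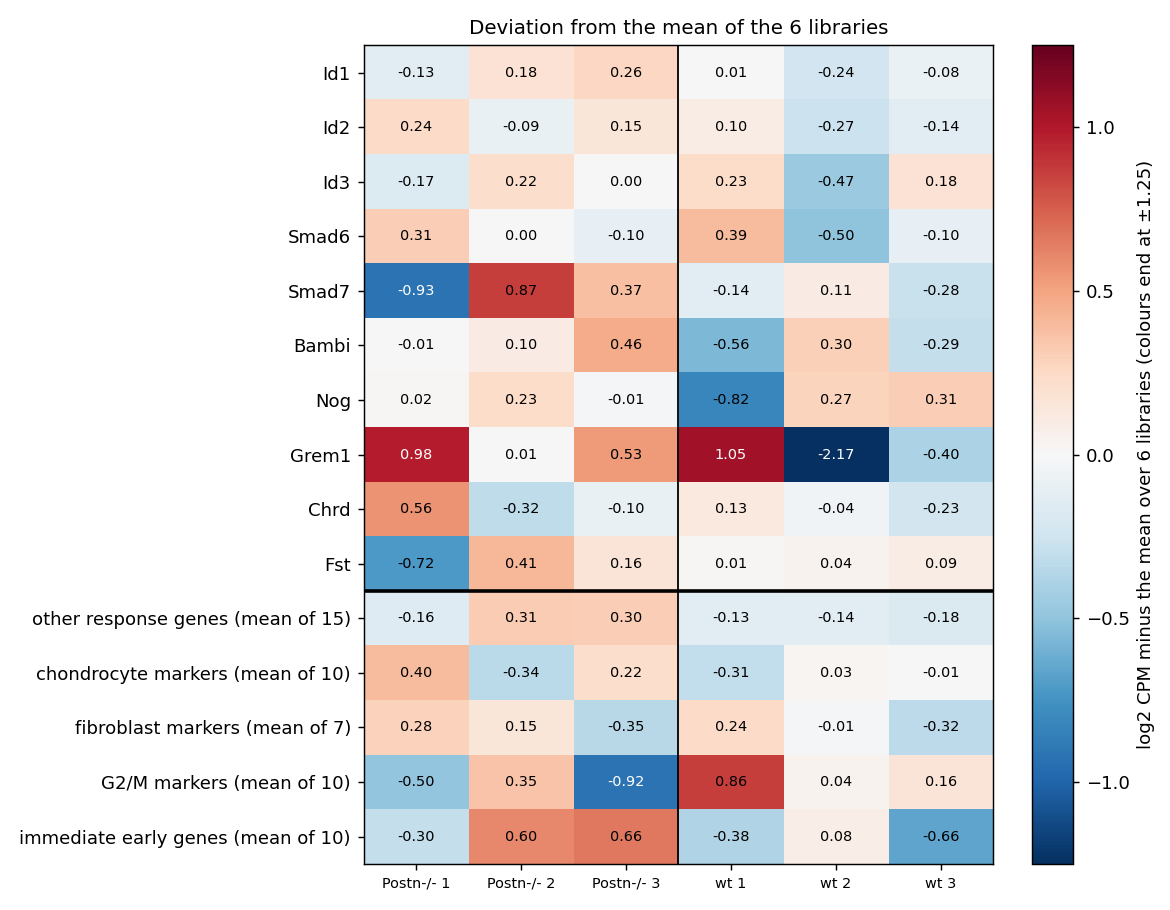
Deviation of each gene's log2 CPM (prior count 2) from its mean over the 6 libraries, for the 10 genes (upper rows) and, as means over the list, for 5 gene lists (lower rows), with Postn-/- libraries on the left and wt libraries on the right. The deepest cell is Grem1 in wt replicate 2 at -2.17, beyond the end of the colour scale.

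Leaving out single libraries separated the genotypes for some genes, a count that rises for all genes when 1 group holds 2 libraries. Without Postn-/- replicate 1 the genotypes did not overlap for Fst, Id1 and Smad7, all higher in Postn-/- (3 of 10, against 25.9% of all genes then tested). Without Postn-/- replicate 2 this held for Id2 (1 of 10, against 26.7%) and without wt replicate 2 for Bambi (1 of 10, against 27.2%), both higher in Postn-/-. Without wt replicate 1 it held for Grem1, Id2 and Smad6, higher in Postn-/-, and for Nog, lower in Postn-/- (4 of 10, against 22.3%). Without Postn-/- replicate 3 it held for 0 of 10 (against 19.3%) and without wt replicate 3 also for 0 of 10 (against 24.6%). In any of these 6 edgeR fits, at most 2 of the 10 passed 0.05 unadjusted, and 0 passed it adjusted. Id1 and Smad7 passed without Postn-/- replicate 1 (background 6.02%), Grem1 without wt replicate 1 (5.44%) and Bambi without wt replicate 2 (8.71%). None of the 10 passed without Postn-/- replicate 2 (7.73%), Postn-/- replicate 3 (2.98%) or wt replicate 3 (6.14%). The study's methods name limma's voomWithQualityWeights with surrogate variables, and 2 such variables were used here. In this fit 3 of the 10 passed 0.05 unadjusted, all higher in Postn-/-, and 13.7% of all genes tested passed it. These were Grem1 with a log2 fold change of 1.17 (unadjusted p = 0.000369 and adjusted p = 0.194, limma), Id2 with an unadjusted p of 0.0305 and Id1 with an unadjusted p of 0.0464. Without the surrogate variables limma gave 0 of 10, against 9.2% of all genes tested.

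The 3 members with the widest ranges were set beside the genes nearest to them in gene-centred log2 CPM over the 6 libraries. Closest to Smad7 were Nes (root mean square difference 0.140), Ccn1 (0.144) and Fam196a (0.145). Ccn1, which encodes a matricellular protein, gave 188, 833 and 561 CPM in Postn-/- replicates 1, 2 and 3 and 344, 496 and 371 CPM in the wt replicates, so it was also lowest in Postn-/- replicate 1 and highest in Postn-/- replicate 2. Closest to Grem1 were Rtn1 (0.281), Mab21l1 (0.348) and Zkscan4 (0.369), none above 1.45 CPM, with 0.136 to 0.181 CPM in wt replicate 2, where 3 counts are 0.134 CPM before TMM normalization. Closest to Nog were Tbxas1 (0.0702), Csmd2 (0.0734) and Atp2c2 (0.0828), each lowest in wt replicate 1.

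Of the other genes of the pathway, 58 of 62 passed the filter. In edgeR's test 9 of the 58 were higher in Postn-/- at an unadjusted p of at most 0.05 (background 3.95%) and 1 was lower (background 2.35%), and 0 passed the adjusted threshold, with an adjusted p of 0.717 for each of the 10. DESeq2's Wald test gave 7 higher (background 3.3%) and 1 lower (background 2.7%), and 0 past the adjusted threshold. The median log2 fold change of the 58 was 0.14. Without wt replicate 3 the count fell from 10 to 6 of 58 (5 higher and 1 lower), where 6.14% of all genes passed. The genes were listed with earlier results of these data known, so the counts are a description. The alternative fits below reuse the same libraries, so they are no independent support for genes named by their p.

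Among 15 other response genes, 5 were higher at the unadjusted threshold (background 3.95%) and 0 lower (background 2.35%). A log2 fold change above 0 was found for 13 of the 15 and for 50.8% of all genes tested. Atoh8, a basic helix-loop-helix factor switched on by BMP signals, had levels of 53.4, 68.7 and 80.8 CPM in the Postn-/- libraries, against 38.3, 31.5 and 42.1 CPM in wt. Every Postn-/- library was above every wt library, by a log2 fold change of 0.86 (SE 0.18, unadjusted p = 0.00128, edgeR). Its unadjusted p stayed at or below 0.05 in all 14 alternative fits, and its adjusted p ranged over them from 0.0560 to 0.983.

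Id4, the fourth gene of the Id family, reached 9.04, 6.26 and 6.58 CPM in Postn-/- chondrocytes and 5.19, 3.62 and 5.46 CPM in wt chondrocytes, and these groups did not overlap (log2 fold change 0.62, SE 0.24, unadjusted p = 0.0333, edgeR). Per kilobase of exon it averaged 3.63 RPKM, far below Id1, Id2 and Id3. Msx1, a homeobox gene and BMP target, measured 3.98, 2.97 and 3.38 CPM across the Postn-/- cultures and 2.35, 1.54 and 2.20 CPM across the wt cultures, again without overlap (log2 fold change 0.76, SE 0.25, unadjusted p = 0.0169, edgeR). Hey1, a target of Notch and BMP signals, gave 10.97, 12.6 and 25.9 CPM in Postn-/- replicates 1, 2 and 3 and 10.3, 7.47 and 10.01 CPM in the wt replicates (log2 fold change 0.83, SE 0.33, unadjusted p = 0.0363, edgeR). Postn-/- replicate 3 carried much of this value, which was 0.35 without it (unadjusted p = 0.153, edgeR). In the alternative fits the unadjusted p stayed at or below 0.05 in 12 of 14 for Id4 and for Msx1 and in 10 of 14 for Hey1. The fifth was Ski, a co-repressor of Smads, with 32.6, 38.2 and 38.1 CPM in Postn-/- and 27.5, 32.7 and 27.6 CPM in wt, with overlap (log2 fold change 0.31, unadjusted p = 0.0380, edgeR).

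Pmepa1, a TGF-β target, had, like Smad7, its lowest value in Postn-/- replicate 1, and was chosen for mention after its values were seen. It reached 10.05, 25.7 and 28.7 CPM in Postn-/- chondrocytes and 23.3, 11.5 and 17.5 CPM in wt chondrocytes. The genotypes overlapped (unadjusted p = 0.475, edgeR).

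Among the receptors, 11 of 12 passed the filter. All 11 had a log2 fold change above 0 (background 50.8%), and 2 passed 0.05 unadjusted (background 6.3%). Eng, which encodes the co-receptor endoglin, measured 45.7, 45.7 and 33.0 CPM across the Postn-/- cultures and 30.5, 27.2 and 27.1 CPM across the wt cultures, without overlap (log2 fold change 0.55, SE 0.15, unadjusted p = 0.00646, edgeR). Tgfbr2, the type II receptor of TGF-β, gave 80.8, 71.5 and 63.8 CPM in Postn-/- replicates 1, 2 and 3 and 58.2, 57.8 and 61.1 CPM in the wt replicates (log2 fold change 0.29, SE 0.11, unadjusted p = 0.0358, edgeR). Tgfbr2 kept an unadjusted p of at most 0.05 in 5 of 14 alternative fits, and Eng in all 14. Eng is also known from endothelial cells. The 4 endothelial markers that passed the filter also had log2 fold changes above 0, from 0.11 for Pecam1 to 0.65 for Emcn (unadjusted p from 0.214 to 0.748, edgeR), and their part in the value of Eng was not tested.

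All 6 signal-carrying Smads passed the filter, and 1 differed at the unadjusted threshold (background 6.3%). Smad5, which carries BMP signals, had levels of 47.0, 48.0 and 45.3 CPM in the Postn-/- libraries, against 60.4, 59.5 and 53.7 CPM in wt, so every Postn-/- library was below every wt library (log2 fold change -0.31, SE 0.10, unadjusted p = 0.0139, edgeR). Of the 10 pathway genes at the unadjusted threshold it was the only one lower in Postn-/-, and its unadjusted p stayed at or below 0.05 in 13 of 14 alternative fits.

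Of 14 other antagonists 12 passed the filter, 6 with a log2 fold change above 0 (background 50.8%) and 6 below. Nbl1, which encodes a secreted BMP antagonist, reached 2.53, 4.39 and 4.91 CPM in Postn-/- chondrocytes and 2.85, 1.27 and 1.34 CPM in wt chondrocytes. Its genotypes overlapped through wt replicate 1 (log2 fold change 1.10, SE 0.39, unadjusted p = 0.0238, edgeR). The unadjusted p stayed at or below 0.05 in 9 of 14 alternative fits and ran up to 0.0837, without wt replicate 3. Of 15 ligands 14 passed, 7 above 0 (background 50.8%) and 7 below. Gdf10, a ligand of the TGF-β family also called BMP3B, measured 156, 143 and 139 CPM across the Postn-/- cultures and 103, 63.2 and 64.7 CPM across the wt cultures (log2 fold change 0.92, SE 0.19, unadjusted p = 0.00150, edgeR). The groups did not overlap, and the unadjusted p stayed at or below 0.05 in all 14 alternative fits. Its adjusted p ranged over them from 0.0572 to 0.983.

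**Figure D4:**
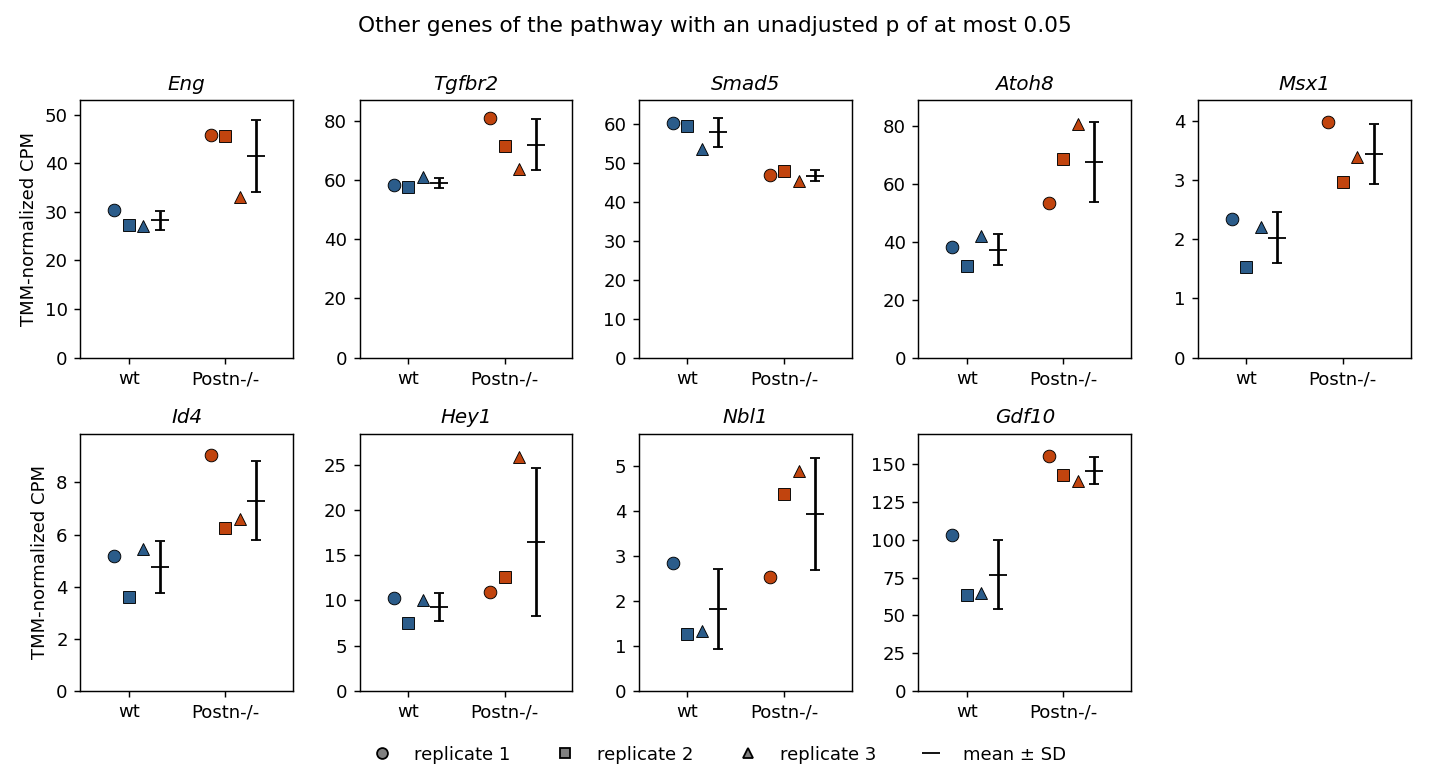
Level of the 9 other pathway genes named by their unadjusted p (TMM-normalized CPM, linear axis from 0) in the 3 wt and 3 Postn-/- libraries, with symbols for the replicate number and a bar for the mean ± SD (n = 3). Smad5 is lower in Postn-/- and the other 8 are higher, and only Nbl1 overlaps between the genotypes.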

How the data were processed

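RNA was sequenced from 3 Postn-/- and 3 wt chondrocyte cultures, with 3 mice per genotype in the methods. The authors made cDNA with the SMARTer Ultra Low kit, sequenced single ends of 50 bases, and used STAR 2.0.4b with Ensembl release 76 for alignment. Reads with a unique, unambiguous position were assigned to genes by featureCounts 1.4.5 (versions as in the submitters' processing notes). The deposited raw counts entered the tests. The deposited CPM is the count scaled to the library's total and the deposited RPKM is this CPM per kilobase of exon, and both were only checked against the counts. Gene names and positions came from GENCODE M21 (97.5% of 41388 identifiers matched), on build GRCm38. For 99.8% of the matched identifiers its gene positions overlapped those in the deposited tables. The submitters' notes also name mm9.

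Following the study's methods, a gene needed a CPM over 1 in 2 or more libraries, and 355 rRNA genes were dropped. In R 4.3.3, edgeR 4.0.16 (TMM, quasi-likelihood test, no covariates) compared Postn-/- with wt over 14533 genes with Benjamini-Hochberg adjustment. Gene-centred values used log2 CPM with a prior count of 2. Libraries of 3 against 3 cannot go below an exact permutation p of 0.1, so for overlap of genotypes only counts are given. Chi-square per degree of freedom between libraries was 36.5 or more, so none was a repeat of another.

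The 10 genes, the pathway list of 62 genes and the marker lists were chosen with earlier results of these data known. Pathway genes were named where the unadjusted p was at most 0.05, at most 4 per role. For the 3 members of widest range the 3 nearest genes by root mean square difference were named. Alternatives were DESeq2's size factors, upper quartile factors, no filter, a filter of CPM above 1 in all 6 samples, DESeq2 1.42.0, voomWithQualityWeights of limma 3.58.1, alone and with surrogate variables from sva 3.50.0, a block for the replicate number, and the omission of each library in turn.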

Additional observations from a re-analysis of the deposited data

How the results depend on the processing

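Against 2 genes past an adjusted p of 0.05 in edgeR's fit, there were 1 with upper quartile factors, 9 with no filter on low counts, 0 with CPM above 1 in all 6 samples, 10 with DESeq2's Wald test, 1 with voomWithQualityWeights and 4 with its surrogate variables, and 1 to 2 when each library was left out. Of the 10 genes, 3 passed an unadjusted p of 0.05 with surrogate variables (13.7% of all genes did) and 0 to 2 when each library was left out (2.98% to 8.71% of all genes), and 0 to 4 did not overlap between genotypes when each library was left out (19.3% to 27.2% of all genes). Their median log2 fold change stayed between 0.13 and 0.25, and 7 to 9 of them stayed above 0. The count of other pathway genes past the unadjusted threshold, an alternative added after the data were seen, was 10 in the main edgeR fit, 8 to 12 under other settings (5.24% to 13.7% of all genes, the 12 and the 13.7% both with surrogate variables) and 6 to 10 when each library was left out (2.98% to 8.71%), with 6 without wt replicate 3 (6.14%). The log2 fold change of Id3 was -0.00066 both with DESeq2's size factors in edgeR and with DESeq2's Wald test, -0.015 with no filter and -0.030 with voomWithQualityWeights, and that of Nog was -0.045 with voomWithQualityWeights. When each library was left out, log2 fold changes ran from 0.13 to 0.32 for Id1, 0.12 to 0.31 for Id2, 0.16 to 0.62 for Bambi, 0.05 to 1.60 for Grem1, -0.18 to 0.13 for Id3, -0.21 to 0.27 for Nog, -0.17 to 0.32 for Chrd, -0.27 to 0.24 for Fst, -0.087 to 0.38 for Smad6 and -0.042 to 0.74 for Smad7. The cause of these changes was not tested. Nog, Chrd and Smad6 were counted with 33 to 238 reads per library, which limits what these libraries can show for them.

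Libraries with the same replicate number come from different mice, and their deviations from the genotype means correlated across genes by 0.0824, 0.155 and 0.143 for numbers 1, 2 and 3, against -0.130 to 0.0143 for other pairings, so each library correlated best with its own number. This is a hint from the data, not the design, and genes are not independent replicates. With the replicate number as a block, edgeR gave 1 gene past an adjusted p of 0.05 and 0 of the 10 genes past an unadjusted p of 0.05 (8.17% of all genes), with a log2 fold change of 0.96 for Grem1 (unadjusted p = 0.0655).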

Other observations

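Prg4, which encodes lubricin of the superficial layer of cartilage, was chosen for mention after its values were seen. It gave 838, 206 and 422 CPM in Postn-/- replicates 1, 2 and 3 and 439, 131 and 279 CPM in the wt replicates, so that, as for Grem1, wt replicate 2 was the lowest library. The genotypes overlapped (log2 fold change 0.79, unadjusted p = 0.190, edgeR). Col1a1, the type I collagen of fibroblasts and bone cells, had levels of 845, 1430 and 482 CPM in the Postn-/- libraries, against 566, 2059 and 549 CPM in wt, with wt replicate 2 the highest library, and its genotypes also overlapped (log2 fold change -0.20, unadjusted p = 0.732, edgeR).

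All 10 markers of the G2/M phase had a log2 fold change below 0, from -0.79 to -0.49, whereas 50.8% of all genes tested were above 0. Of the 10, 1, Ccnb1, had an unadjusted p of at most 0.05 (0.0467, edgeR, background 2.35% lower). For all 10 the genotypes overlapped. Of all genes tested 13.6% did not overlap, a share at which 0 of 10 does not set these markers apart. Of the 10 immediate early genes 9 had a log2 fold change above 0 (background 50.8%). Of these, 2, Junb and Nr4a1, were higher in every Postn-/- library than in every wt library (unadjusted p = 0.0172 and 0.00898, edgeR), as were 7.03% of all genes tested. Of 5 muscle genes 2 passed the filter, and they differed in direction. Acta1 reached 2.77, 4.51 and 4.43 CPM in Postn-/- chondrocytes and 4.96, 15.9 and 8.15 CPM in wt chondrocytes (log2 fold change -1.30, unadjusted p = 0.0152, edgeR). Des had 1.57, 2.32 and 1.14 CPM in the Postn-/- libraries, against 0.961, 1.76 and 0.719 CPM in wt (log2 fold change 0.55, unadjusted p = 0.217, edgeR).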
